A study of Mus musculus with 141 samples.

Results

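Fcer1a-positive and Fcer1a-negative BMCP are the 2 sides of a split within single cells sorted as basophil and mast cell progenitors. The cells were chosen by a measured value, the level of Fcer1a, in CPM, the reads of a gene per 1000000 reads of the nuclear-encoded genes of that cell. Of 94 BMCP, 89 were kept, with at least 50000 nuclear-encoded counts, at most 10% of gene counts in mitochondrial genes and at most 50% of reads from spike-in RNA. In 17 of the 89 Fcer1a stood at 50 CPM or more (19.1%, exact Clopper-Pearson limits of 11.5 to 28.8%), and in 72 it stood under 10 CPM. No kept BMCP lay between these limits, and the whole series holds 141 cells. Fcer1a itself is therefore no finding, and its values are given as a description.

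The study sequenced single cells from the bone marrow of 3 female C57BL/6 mice, wild type as far as the labels say, and no treatment is given in them. BMCP were live, negative for lineage markers, positive for cKit, negative for Sca1, and high for both integrin beta7 and CD16/32. The other population, 47 granulocyte and monocyte progenitors (GMP), were CD34-positive and CD16/32-high and lay outside that gate, and 41 of them were kept here. No label says which mouse a cell came from, so each side of the split is a set of cells from 1 sample, no test was made, and no p-value is given.

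The high-affinity receptor for IgE sits on basophils and mast cells. Its alpha chain, encoded by Fcer1a, binds IgE, its beta chain, encoded by Ms4a2, amplifies the signal, and its gamma chain, encoded by Fcer1g, carries the signal into the cell and also serves other Fc receptors. Antigen that crosslinks the bound IgE makes these cells release stored histamine, heparin and proteases and form leukotrienes and prostaglandins. Basophils complete their maturation in bone marrow, whereas mast cells mature in tissues, and BMCP are regarded as progenitors of both.

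The 17 positive cells held a median of 945314 nuclear-encoded counts (322302 to 1718647), and the 72 negative cells a median of 824780 (96129 to 2416630). The number of genes with a read had a median of 5261 in positive and 5469 in negative cells. Nuclear-encoded counts per spike-in count had a median of 9.06 in positive and 7.44 in negative cells, and their ranges overlapped. The cells are numbered 1 to 94, and numbers 1 to 47 and 48 to 94 occupy separate blocks of the table, which the labels do not describe. Positive cells made up 12 of 44 kept cells in numbers 1 to 47 (27.3%, 14.96 to 42.8%) and 5 of 45 in numbers 48 to 94 (11.1%, 3.71 to 24.1%).

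Fcer1a ranged from 57.3 to 2392 CPM in the positive cells, with a median of 298 CPM. The positive cells nearest the limit were BMCP 82 at 57.3 CPM (36 reads), BMCP 63 at 80.9 CPM (139 reads) and BMCP 43 at 93.1 CPM (30 reads). The negative cells nearest it were BMCP 32 at 9.65 CPM and BMCP 41 at 6.07 CPM, each with 2 reads. Of the 72 negative cells, 42 had no Fcer1a read and 30 had 1 to 4 reads, and 20 of those 30 were in numbers 1 to 47. The 41 GMP had no Fcer1a read. The 5 BMCP left out by the filters had 0 to 2 reads.

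**Figure D1:**
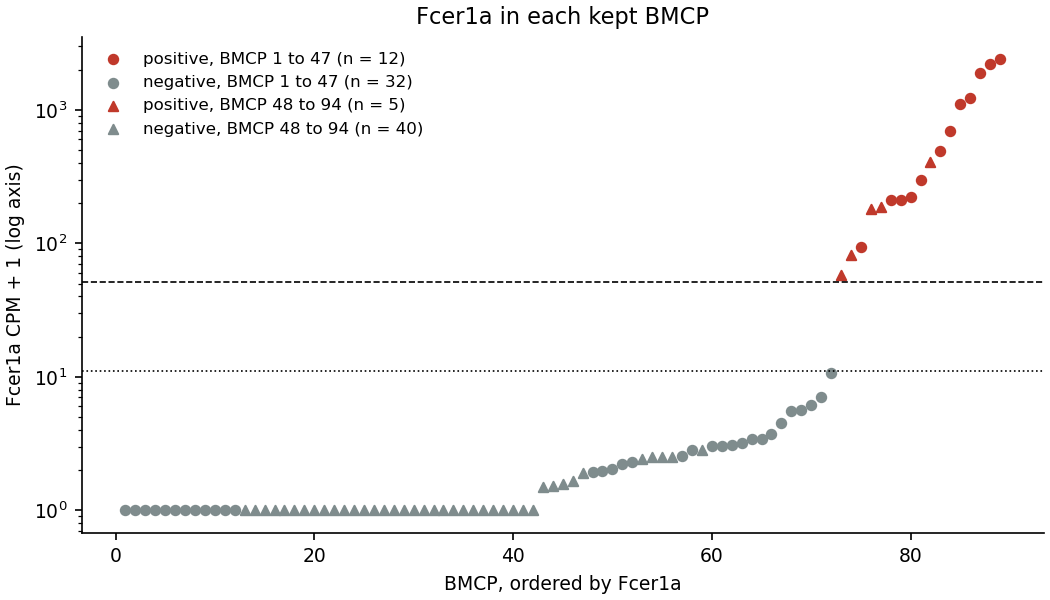
CPM of Fcer1a plus 1 (log y axis) in each of the 89 kept BMCP, ordered by that value (x axis). Red marks the 17 positive and grey the 72 negative cells, circles are numbers 1 to 47 and triangles numbers 48 to 94, and the dashed and dotted lines are the limits of 50 and 10 CPM; no cell lies between 9.65 and 57.3 CPM.

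The promoters of Fcer1a and of 3 protease genes described below are shown because GATA factors are known regulators of basophil and mast cell genes. The sequences are the 250 bases before the annotated start of each gene (RefSeq, GRCm38.p6), written 5′ to 3′ on the strand of the gene. Capitals mark a match to a motif of these factors, found on either strand. The letters AGATAA were searched for in each window and on both of its strands. The same search was made, with no mismatch allowed, for AGATAG. Matches were likewise sought to a pair of related forms, of which the former was TGATAA. The latter of that pair of related forms, searched for in the same windows, was TGATAG. No form overlapped another match in the windows shown. Fcer1a is at chr1:173227230-173227479, Cma1 at chr14:55944676-55944925, Cpa3 at chr3:20242182-20242431 and Mcpt8 at chr14:56085198-56085447, all on the minus strand.
Fcer1a: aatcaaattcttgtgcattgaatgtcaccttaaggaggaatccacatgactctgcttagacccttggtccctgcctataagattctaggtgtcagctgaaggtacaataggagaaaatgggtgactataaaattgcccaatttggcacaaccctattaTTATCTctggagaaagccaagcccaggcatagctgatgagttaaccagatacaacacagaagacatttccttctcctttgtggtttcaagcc
Cma1: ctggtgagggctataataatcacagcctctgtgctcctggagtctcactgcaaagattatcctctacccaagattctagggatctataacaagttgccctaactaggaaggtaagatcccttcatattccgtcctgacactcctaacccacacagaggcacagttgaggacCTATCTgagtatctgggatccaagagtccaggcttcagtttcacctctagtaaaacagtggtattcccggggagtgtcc
Cpa3: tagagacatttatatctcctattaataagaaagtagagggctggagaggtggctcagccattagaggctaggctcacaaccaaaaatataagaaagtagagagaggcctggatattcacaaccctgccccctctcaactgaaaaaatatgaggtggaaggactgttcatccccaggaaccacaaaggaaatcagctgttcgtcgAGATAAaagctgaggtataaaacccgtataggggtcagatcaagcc
Mcpt8: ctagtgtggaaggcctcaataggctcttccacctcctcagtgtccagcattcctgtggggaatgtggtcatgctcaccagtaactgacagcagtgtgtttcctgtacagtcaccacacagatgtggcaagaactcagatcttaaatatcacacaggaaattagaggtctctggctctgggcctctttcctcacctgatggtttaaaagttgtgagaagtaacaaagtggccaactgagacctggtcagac
Fcer1a, Cma1 and Cpa3 each had 1 match and Mcpt8 had none in this window. Of 32851 such windows in the table, 26.5% held at least 1 match. A match is a description of the letters and not of a bound site.

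The values that follow compare the summed counts of each side. A log2 ratio is the log2 of the summed CPM plus 1 in positive cells over the same in negative cells. Of 13734 genes with at least 1 CPM in either side, 2168 (15.8%) were at least 2-fold higher in positive cells and 4156 (30.3%) at least 2-fold lower, with a median log2 ratio of -0.23. These shares are the background for every count of list members given below. Of the 8677 genes with at least 20 CPM in either side, 1322 were higher by 2-fold or more and 1844 lower by as much, with a median of -0.08. With both sides scaled to their spike-in counts, the median over all genes was 0.16 in place of -0.23. Such scaling shifts all genes of a side by nearly the same amount. List medians set against the median of all genes were therefore bound to move little. They were 2.93 and 2.94 for mast cell genes and -0.88 and -0.87 for immediate early genes. Without that adjustment the list medians with spike-in scaling were 3.10 for mast cell genes and -0.71 for immediate early genes. Unadjusted for that shift, genes given below as lower in positive cells, Grb2, Vav1, Egr1, Ier2, Klf6 and Igfbp4 among them, were then less than 2-fold lower. The cells of 1 side differ widely, so for the genes that matter the lowest, median and highest cell are given before the summed value. In 26 gene lists, 95 members were at least 2-fold different and at 20 CPM or more in the higher side, 67 of them higher and 28 lower in positive cells. Without the cell that gave most of their reads, 39 of the 67 and 24 of the 28 were still at least 2-fold different. That cell was 1 of 17 for higher and 1 of 72 for lower members, so these 2 counts are not alike. No such count was made over all genes.

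**Figure D2:**
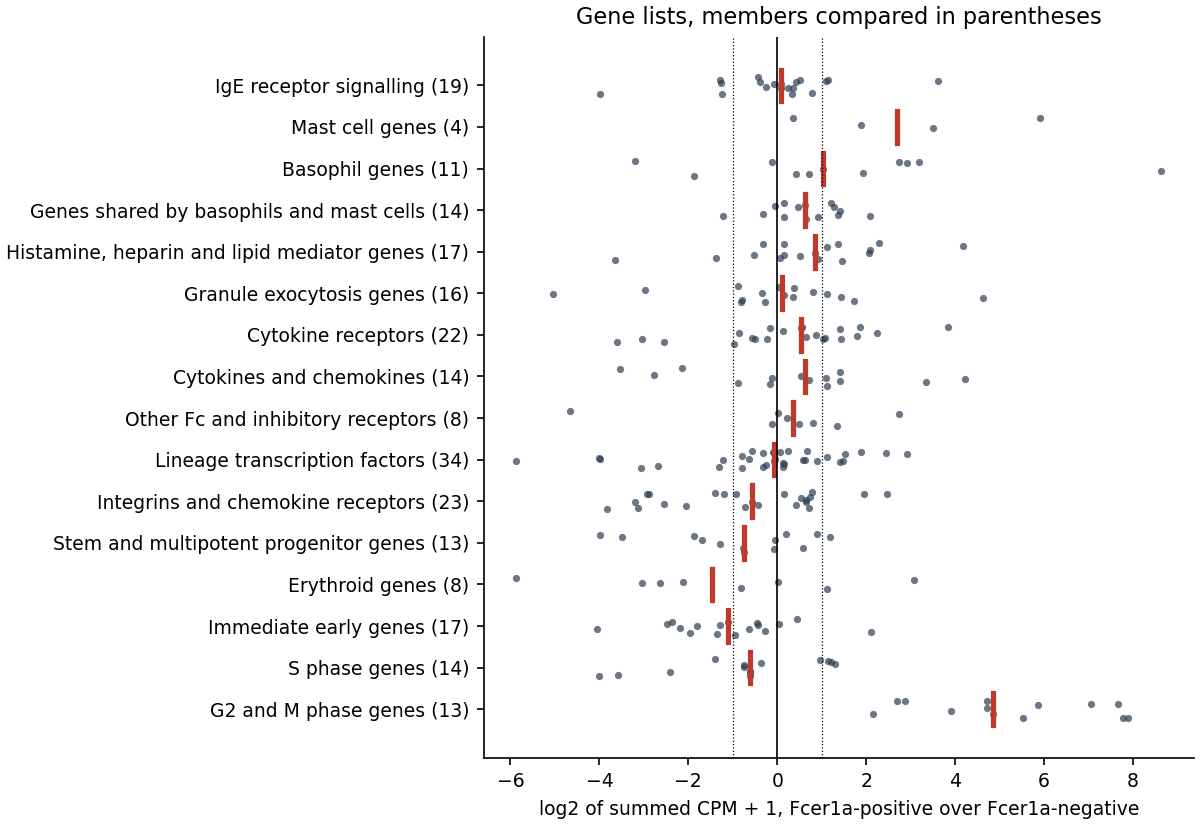
Log2 ratio of summed CPM plus 1, positive over negative BMCP (x axis), for 16 gene lists (y axis, number of members compared in parentheses). Dots are genes, red bars are list medians, and dotted lines mark 2-fold; the medians run from -1.47 for erythroid genes to 4.84 for G2 and M phase genes, and the latter rests on BMCP 29 and 44.

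The summed levels of both partner chains of the receptor differed by less than 2-fold between the sides. Ms4a2 ranged from 0 to 2103 CPM in positive cells (median 999) and from 0 to 3876 CPM in negative cells (median 567). It reached 50 CPM in 15 of 17 positive and 50 of 72 negative cells. Both sides thus held cells with many and cells with few or no Ms4a2 reads, which is a statement on RNA and not on the protein. The positive BMCP 84 had no Ms4a2 read, and BMCP 3, the cell with the highest Fcer1a, had 5.21 CPM of Ms4a2. The summed level of Ms4a2 was 961 CPM in positive and 738 CPM in negative cells, a log2 ratio of 0.38 that was 1.07 in numbers 1 to 47 and -0.41 in numbers 48 to 94. Fcer1g was counted in every cell of both sides, from 294 to 3458 CPM in positive cells (median 1373) and from 159.5 to 3313 CPM in negative cells (median 1010.3). Its log2 ratio was 0.42, with 0.65 and -0.18 within the blocks. The GMP had Ms4a2 at 273 CPM and Fcer1g at 297 CPM.

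Of 19 genes compared that carry the signal of the receptor, 3 were higher by 2-fold or more and 4 lower by as much in positive cells, with a median log2 ratio of 0.09, shares at or below those of all genes. Lat2, an adaptor of the linker for activation family, ranged from 4.91 to 2864 CPM in positive cells (median 1285) and from 0 to 3795 CPM in negative cells (median 537). The ranges overlapped, and 13 of 17 positive cells lay above the median of negative cells. Its log2 ratio was 1.09, with 1.24 and 1.06 within the blocks, and 0.98 without BMCP 35. The adaptor Grb2 stood at 75.7 CPM in positive and 181 CPM in negative cells, a log2 ratio of -1.25. Vav1, an exchange factor for small GTPases, was at 102 and 248 CPM (-1.27), or 64.6 CPM in positive cells without BMCP 82. Both were lower in positive cells within each block. The kinases that start the signal were less apart, with Lyn at 124 and 167 CPM and Syk at 161 and 170.3 CPM. Of the other members, the adaptor Gab2 (80.9 and 36.4 CPM) had 79.97% of its positive reads in BMCP 45 and 17.6 CPM without it. Rasgrp4, with 5 reads in positive cells, was at 0.313 and 19.9 CPM.

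Granule proteases were among the genes that set the sides apart. Cma1, the chymase of connective tissue mast cells, ranged from 0 to 34299.7 CPM in positive cells (median 645) and from 0 to 13495 CPM in negative cells (median 10.2). It reached 50 CPM in 11 of 17 positive cells (64.7%, 38.3 to 85.8%) and in 18 of 72 negative cells (25%, 15.5 to 36.6%). The sides overlapped, and 5 positive cells were under 10 CPM. The summed level was 5781 CPM in positive cells (exact Poisson limits 5744 to 5819) and 510.3 CPM in negative cells (505 to 516), a log2 ratio of 3.50. Without BMCP 11 it was 3846 CPM in positive cells, and without BMCP 52 it was 244 CPM in negative cells. The log2 ratio was 3.57 in numbers 1 to 47 and 1.13 in numbers 48 to 94, where the median positive cell held 15.7 CPM. The highest positive cells there were BMCP 82 at 6897 CPM and BMCP 92 at 531 CPM, so that ratio came from BMCP 82. In GMP Cma1 stood at 0.234 CPM.

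Mcpt8, the protease that marks mouse basophils, ranged from 0 to 12871 CPM in positive cells (median 103) and from 0 to 13003 CPM in negative cells (median 3.30). It reached 50 CPM in 9 of 17 positive cells (52.9%, 27.8 to 77.02%) and 11 of 72 negative cells (15.3%, 7.88 to 25.7%). The other 8 positive cells were all under 10 CPM, so the level was split within the positive side too. The summed level was 2449 and 267 CPM, a log2 ratio of 3.19, with 2.27 and 3.65 within the blocks. Without BMCP 14 the negative level was 177 CPM. In numbers 48 to 94 the difference came from BMCP 82, as the median of the 5 positive cells was 3.36 CPM. In GMP the summed level of Mcpt8 was 137 CPM. At a fixed depth of 200000 reads per cell Mcpt8 reached 10 reads in 19 of 40 GMP. It did so in 9 of 17 positive and 11 of 69 negative cells, so Mcpt8 reads were not limited to BMCP. Cma1 and Mcpt8 were both at 50 CPM or more in 8 of 17 positive and 6 of 72 negative cells, and neither was in 5 of 17 and 49 of 72.

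Cpa3, mast cell carboxypeptidase, was counted in every cell, from 1373 to 30930.5 CPM in positive cells (median 7772) and from 94.03 to 30676 CPM in negative cells (median 2149). The ranges overlapped, with 13 of 17 positive cells above the median of negative cells. Summed, Cpa3 stood at 10704 and 4419.7 CPM, a log2 ratio of 1.28 that was 1.35 and 1.06 within the blocks. Gzmb, granzyme B, differed less, at 7944 and 6182 CPM with a log2 ratio of 0.36. Its lowest value in either side was 30.4 CPM, in the positive BMCP 12. Tpsb2, a tryptase of mast cells, had all of its 990 positive reads in BMCP 36 and 3 reads in negative cells. Prss34, a basophil protease, had 99.9% of its positive reads in BMCP 12 and stood at 0.468 CPM without it, against 0.615 CPM in negative cells. Reads of the related protease genes on chromosome 14 may be shared where their sequences are alike.

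As lists, mast cell genes had 3 of 4 compared members at least 2-fold higher in positive cells and none lower, with a median log2 ratio of 2.69, or 1.16 without BMCP 36. The 7 other listed members did not reach 1 CPM in either side. Basophil genes had 6 of 11 higher by 2-fold or more and 2 lower by as much, with a median of 1.02, or 0.51 without BMCP 12. The 2 lower members were Ifitm1, described below, and Itga2, at 1.00 and 17.4 CPM. Genes shared by both cell types had 5 of 14 higher and 1 lower, with a median of 0.63. The lower one was Rgs1, a regulator of G protein signals, at 222 and 514 CPM, and Hgf, a growth factor, was at 21.1 and 8.61 CPM, or 1.67 CPM without BMCP 12. Cyp11a1, the enzyme that starts steroid synthesis from cholesterol, ranged from 0 to 5482 CPM in positive cells (median 848) and from 0 to 3674 CPM in negative cells (median 10.3). It reached 50 CPM in 14 of 17 and 28 of 72 cells, and its log2 ratio of 1.94 was 1.75 and 1.63 within the blocks. Cd200r3, an activating receptor of basophils and mast cells, stood at 56.02 and 7.62 CPM, or 3.79 CPM in negative cells without BMCP 14, and had no read in 9 of 17 positive and 65 of 72 negative cells. Il4, the cytokine that directs IgE production, was at 42.9 and 25.7 CPM and reached 50 CPM in 6 of 17 and 18 of 72 cells. Il3ra, the alpha chain of the IL-3 receptor, was at 81.2 and 39.5 CPM, or 46.3 CPM in positive cells without BMCP 12.

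**Figure D3:**
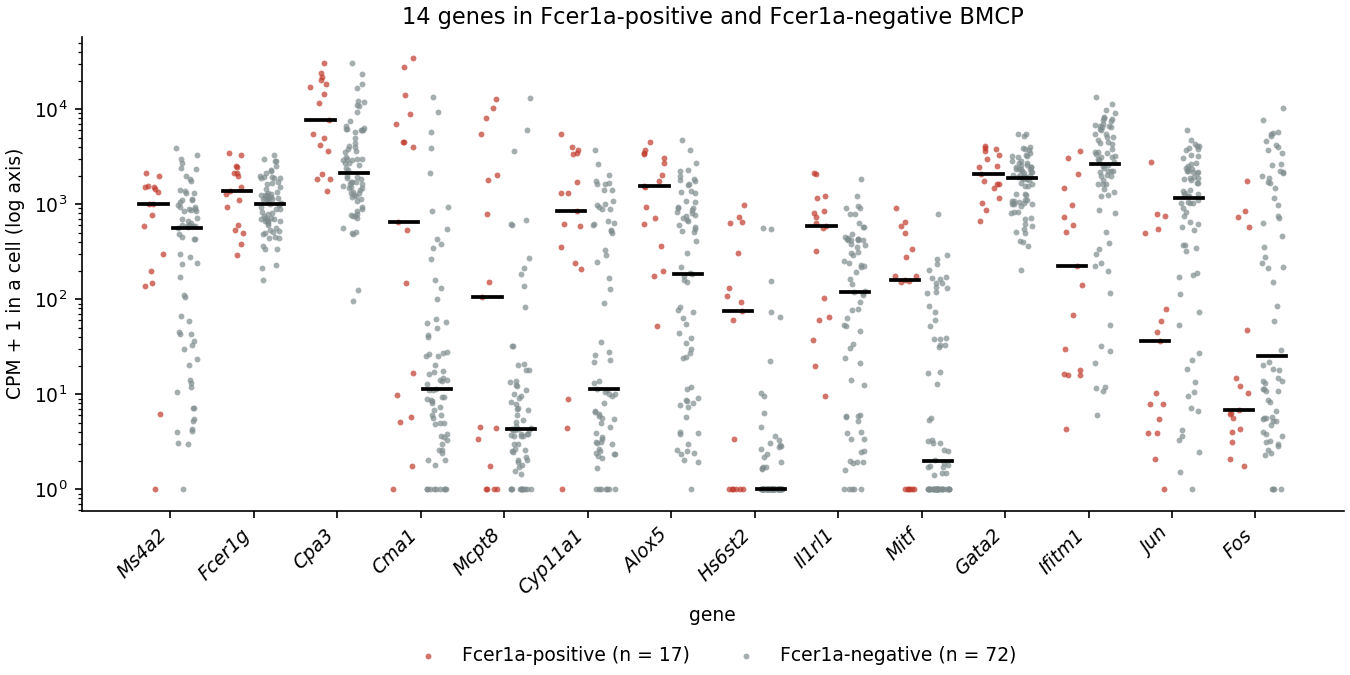
The y axis (log) gives CPM plus 1 of single cells and the x axis names 14 genes, for 17 positive (red) and 72 negative (grey) BMCP; black bars are medians. The medians of Cma1 are 645 and 10.2 CPM and those of Ifitm1 220 and 2667 CPM, while those of Gata2 lie at 2054 and 1901 CPM; the cells of both sides overlap for every gene shown.

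Of 17 genes compared that make the mediators of these cells, 7 were at least 2-fold higher in positive cells and 2 at least 2-fold lower, with a median log2 ratio of 0.86, or 0.34 without BMCP 18. Alox5, the 5-lipoxygenase that starts leukotriene synthesis, ranged from 51.5 to 4499 CPM in positive cells (median 1542) and from 0 to 4712 CPM in negative cells (median 185). At a fixed depth of 200000 reads per cell it reached 10 reads in 17 of 17 positive and 43 of 69 negative cells. Its log2 ratio was 1.37, with 1.42 and 1.64 within the blocks. Alox5ap, its activating protein, stood at 277 and 127 CPM, a log2 ratio of 1.12 that was 0.71 without BMCP 12. Hpgds, the haematopoietic prostaglandin D synthase, stood at 235 and 54.8 CPM (2.08), with medians of 91.5 and 0 CPM.

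For heparin, the chain of sulphated sugar that packs granule proteases, Ndst2, which sulphates its glucosamine, was at 598 and 218 CPM, with medians of 408 and 8.51 CPM. Its log2 ratio was 1.45, with 1.42 and 0.70 within the blocks. Hs6st2, a heparan sulphate 6-sulphotransferase, is not a member of this list and was named for its large ratio. It was at 139.6 and 21.5 CPM (2.65), or 13.9 CPM in negative cells without BMCP 93. It reached 10 reads at the fixed depth in 10 of 17 positive and 5 of 69 negative cells. Hs3st1, a 3-sulphotransferase, was at 488 and 115 CPM, but its medians of 1.96 and 2.26 CPM did not differ in that direction, and without BMCP 84 the positive level was 306 CPM. Ext1, which builds the chain, was at 21.5 and 3.60 CPM and at 0.130 CPM without BMCP 22. Hdc, which forms histamine, stood at 199 and 248 CPM, or 101 CPM in positive cells without BMCP 12. Slc18a2, which loads histamine into granules, stood at 1006 and 909 CPM.

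Genes of granule exocytosis had a median log2 ratio of 0.10 over 16 members. In positive cells 4 were higher by 2-fold or more and 2 lower by as much, beside 15.8% and 30.3% of all genes. Rab27b, a small GTPase of granule docking, ranged from 0 to 2680.4 CPM in positive cells (median 212) and from 0 to 1594 CPM in negative cells (median 1.48). Of the positive cells 14 of 17 lay above the median of negative cells, and the log2 ratio was 1.72, with 0.94 and 2.66 within the blocks. The membrane fusion proteins Stx4a and Snap23 were at 215 and 79.5 CPM and at 181 and 82.9 CPM. Without BMCP 63 the log2 ratio of Stx4a was 0.62, and without BMCP 35 that of Snap23 was 0.91. Lyst, which controls granule size, was at 40.8 and 0.703 CPM, with no read in 11 of 17 and 66 of 72 cells. Without BMCP 36 it was at 17.04 CPM in positive cells, and without BMCP 93 at 0.267 CPM in negative cells. Rab3d was lower, at 9.20 and 78.6 CPM, and 94.6% of its positive reads lay in BMCP 45. Stx11 had no read in the 17 positive cells, where 3 counts would be 0.188 CPM, and stood at 32.1 CPM in negative cells, or 14.8 CPM without BMCP 67.

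Receptors for cytokines had a median log2 ratio of 0.54 over 22 members, with 8 higher by 2-fold or more and 3 lower by as much, and 0.08 without BMCP 45. Il1rl1, the receptor for IL-33, ranged from 8.58 to 2116 CPM in positive cells (median 589) and from 0 to 1822 CPM in negative cells (median 117). The summed level was 635 and 238 CPM, a log2 ratio of 1.41 with 1.05 and 1.59 within the blocks. Tgfbr2, a receptor chain for TGF-beta, was at 413 and 196 CPM, with medians of 430.0 and 22.7 CPM, and its log2 ratio of 1.07 was 0.87 without BMCP 18. Crlf2, the receptor for TSLP, was at 80.99 and 29.6 CPM, with medians of 62.03 and 2.15 CPM. Il4ra, the alpha chain of the IL-4 receptor, was at 254 and 53.1 CPM, or 34.9 CPM in negative cells without BMCP 58, with medians of 1.56 and 0 CPM. These 4 were higher in positive cells within both blocks. Il9r was at 99.5 and 26.7 CPM, or 61.4 CPM in positive cells without BMCP 3, and its log2 ratio was -2.15 in numbers 48 to 94. Il1rap, the accessory chain of the IL-1 and IL-33 receptors, was at 0.814 and 21.2 CPM, or 8.12 CPM in negative cells without BMCP 51. Kit, the stem cell factor receptor used for the sort, was at 1898 and 1212 CPM, and Itgb7, the integrin chain used for it, at 1913 and 1321 CPM.

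Among other Fc and inhibitory receptors, Fcgr2b, the inhibitory receptor for IgG, was at 95.5 and 37.3 CPM. Its log2 ratio was 1.33, or 0.96 without BMCP 45. Of the positive cells, 15 of 17 lay above the median of 1.05 CPM in negative cells, but many of them by few reads, at 1.71 to 5.44 CPM. At the fixed depth Fcgr2b reached 10 reads in 7 of 17 positive and 8 of 69 negative cells. Fcgr3, an activating receptor for IgG, was at 669 and 476 CPM. Pirb, an inhibitory receptor for MHC class I molecules, was lower in positive cells, at 1.69 and 66.9 CPM, with no read in 15 of 17 and 42 of 72 cells, and 88.9% of its positive reads lay in BMCP 36. The list had 2 of 8 members higher by 2-fold or more and 1 lower by as much, with a median of 0.35.

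Integrins and receptors for chemokines and other attractants had a median of -0.57 over 23 members. Of these, 2 were higher by 2-fold or more and 9 lower by as much, beside 15.8% and 30.3% of all genes. The higher ones were Hrh4, a receptor for histamine, at 112 and 19.6 CPM, and Ccr1, a chemokine receptor, at 309 and 79.5 CPM. Without BMCP 70 Hrh4 was at 12.9 CPM in negative cells, and without BMCP 29 Ccr1 was at 171 CPM in positive cells. The lower ones above 20 CPM were Itgal, at 10.8 and 48.004 CPM, and S1pr1, a receptor for sphingosine 1-phosphate, at 4.19 and 38.3 CPM. Without 1 positive cell each they stood at 6.42 CPM (BMCP 12) and 1.92 CPM (BMCP 29). Cytokines and chemokines had 6 of 14 higher by 2-fold or more and 3 lower by as much, with a median of 0.62 (0.27 without BMCP 36), but the called members each depended on few cells. Csf1 was at 143 and 6.72 CPM, or 37.04 CPM without BMCP 29. Ccl9 was at 485 and 181 CPM, or 244 CPM without BMCP 12. Ccl2 was at 99.8 and 8.94 CPM, or 15.2 CPM without BMCP 36. Tnf was at 87.2 and 31.99 CPM, or 52.5 CPM without BMCP 45, and Ccl4 at 318 and 147 CPM, with a log2 ratio of 0.70 without BMCP 35. In negative cells Csf1 was at 4.23 CPM without BMCP 58, Ccl2 at 2.66 CPM without BMCP 14 and Tnf at 21.2 CPM without BMCP 93.

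Transcription factors of the blood lineages had a median log2 ratio of -0.07 over 34 members, which was 0.34 with spike-in scaling. In each direction 7 members were at least 2-fold different, beside 15.8% of all genes higher and 30.3% lower by as much. Mitf, the mast cell factor, had a median of 159.8 CPM in positive and 0.971 CPM in negative cells, with highest cells at 901 and 784 CPM. Its summed level was 194 and 51.8 CPM, a log2 ratio of 1.89 with 2.10 and 2.11 within the blocks. No read of it was found in 6 of 17 positive and 28 of 72 negative cells. Id2, which blocks helix-loop-helix proteins from binding DNA, stood at 1892 and 865 CPM, with medians of 1915 and 438 CPM, and its log2 ratio of 1.13 was 0.95 without BMCP 18. Runx3 was at 330.0 and 115 CPM and Gfi1b at 92.3 and 34.3 CPM, though their medians of 20.3 and 13.9 CPM and of 0 and 0 CPM were close. The log2 ratio of Gfi1b was 0.96 without BMCP 45. Bhlhe40, a factor of basophil activation in mice, was at 215 and 27.8 CPM, with no read in 13 of 17 and 62 of 72 cells, and at 122 CPM in positive cells without BMCP 36 and 9.40 CPM in negative cells without BMCP 1.

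Gata2, the GATA factor of these lineages, was counted in every cell, with medians of 2054 and 1901 CPM and summed levels of 2023 and 2097 CPM. The GATA factor was thus at a like level in both sides. Gata1 stood at 91.3 and 158 CPM and reached 50 CPM in 4 of 17 and 20 of 72 cells. Without BMCP 84 it was at 46.3 CPM in positive cells, and its log2 ratio was -1.83 in numbers 1 to 47 and 0.30 in numbers 48 to 94. Gata3 was at 27.98 and 9.36 CPM, or 10.4 CPM in positive cells without BMCP 82 and 3.21 CPM in negative cells without BMCP 59, and Cebpa was at 27.8 and 23.5 CPM, with 91.2% of its positive reads in BMCP 12. Ldb1, a cofactor of GATA complexes, was lower at 51.5 and 122 CPM, a log2 ratio of -1.23.

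Ifitm1 and most immediate early genes compared were lower in positive cells. Ifitm1, an interferon-induced membrane protein, ranged from 3.26 to 3609 CPM in positive cells (median 219.8) and from 4.98 to 13322 CPM in negative cells (median 2667). Only 2 of 17 positive cells lay above the median of negative cells. Its log2 ratio was -1.88, with -2.43 and -1.09 within the blocks. Igfbp4, a binding protein of insulin-like growth factors, was named with its values seen and belongs to no list. It stood at 1493 and 3228 CPM, and its log2 ratio of -1.11 was -2.14 in numbers 1 to 47 and -0.01 in numbers 48 to 94, and -0.99 without BMCP 11.

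Of 17 immediate early genes, 9 were at least 2-fold lower in positive cells and 1 at least 2-fold higher, with a median log2 ratio of -1.11. Jun ranged from 0 to 2761 CPM in positive cells (median 35.04) and from 0 to 6087 CPM in negative cells (median 1163), and 1 of 17 positive cells lay above the median of negative cells. It reached 50 CPM in 7 of 17 positive (41.2%, 18.4 to 67.1%) and 58 of 72 negative cells (80.6%, 69.5 to 88.9%). Fos was at 260.2 and 1448 CPM, or 159 CPM in positive cells without BMCP 12, and reached 50 CPM in 4 of 17 and 35 of 72 cells. The log2 ratios were -1.95 for Jun, -2.47 for Fos, -2.19 for Junb, -2.38 for Dusp1, -1.35 for Ier2, -1.30 for Egr1 and -1.11 for Klf6, all below 0 within both blocks. Without BMCP 12 the positive level of Jun was 192 CPM, and without BMCP 54 those of Dusp1 and Egr1 were 61.98 and 78.4 CPM. Without the highest negative cell the log2 ratios of Egr1 and Klf6 were -0.98 and -0.97. Dusp2 was at 54.7 and 194 CPM, or 14.6 CPM in positive cells without BMCP 3 and 115 CPM in negative cells without BMCP 50. The higher member was Egr2, at 26.2 and 5.32 CPM, with all positive reads in BMCP 18, and at 0.134 CPM in negative cells without BMCP 87. The part of these genes in the other differences was not tested.

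Of 8 erythroid genes, 4 were at least 2-fold lower in positive cells and 2 at least 2-fold higher, with a median of -1.47 (-2.26 without BMCP 44). Car1, carbonic anhydrase 1, reached 50 CPM in 2 of 17 positive (11.8%, 1.46 to 36.4%) and 29 of 72 negative cells (40.3%, 28.9 to 52.5%). It was at 42.7 and 272 CPM, or 13.5 CPM in positive cells without BMCP 29. Klf1, which drives erythroid genes, stood at 0.376 CPM in positive cells, from 6 reads, and 79.6 CPM in negative cells, with log2 ratios of -4.93 and -6.10 within the blocks. Tspo2 was at 42.7 and 189 CPM, or 5.90 CPM in positive cells without BMCP 22, and its log2 ratio was 1.31 in numbers 1 to 47. Car2 was higher, at 435 and 199 CPM, with a log2 ratio of 0.68 without BMCP 45. Stem and multipotent progenitor genes had 5 of 13 at least 2-fold lower and 1 higher, beside 30.3% and 15.8% of all genes, with a median of -0.75. The lower ones included Ifitm1, also in the basophil list, and Egr1, also in the immediate early list. Mycn was at 0.376 and 20.9 CPM, and Gcnt2 was higher at 131 and 56.5 CPM, with a log2 ratio of 0.66 without BMCP 63. Cd34, a progenitor surface protein, was at 711 and 476 CPM.

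The high G2 and M phase levels of positive cells lay in few cells. All 13 compared G2 and M phase genes were at least 2-fold higher, with a median of 4.84. Mki67, the proliferation marker, stood at 1582 CPM in BMCP 44 and 1434 CPM in BMCP 29 and at or below 35.1 CPM in the other 15 positive cells, against at most 128 CPM in negative cells. Without these 2 cells, singled out after their values were seen, the list's median was 0.04. BMCP 11 also held Ccnb2, at 649.9 CPM, against at most 6.15 CPM in negative cells, and without BMCP 29 and 44 the log2 ratio of Ccnb2 was 5.63. In numbers 48 to 94, which do not hold BMCP 29 and 44, the list's median was -0.09. The summed levels in positive and negative cells were 333 and 0.410 CPM for Ube2c, 279 and 0.293 CPM for Ccnb2, 245 and 0.220 CPM for Cenpe, and 160.0 and 0.205 CPM for Cenpf. The other 9 had log2 ratios of 2.15 to 5.87, for Aurka, Aurkb, Mki67, Plk1, Ccna2, Cdk1, Tpx2, Ccnb1 and Top2a. S phase genes had 3 of 14 members higher by 2-fold or more and 4 lower by as much, beside 15.8% and 30.3% of all genes, with a median of -0.61. Pcna, the replication clamp, was at 38.2 and 102 CPM, and Mcm5, of the replicative helicase, at 12.5 and 70.6 CPM, or 0.332 CPM in positive cells without BMCP 35. The higher members rested on 1 positive cell each, with Mcm2 at 149 and 59.8 CPM (88.6 CPM without BMCP 63), Rrm1 at 64.5 and 28.6 CPM (21.98 CPM without BMCP 11) and Gins2 at 20.8 and 8.47 CPM with all positive reads in BMCP 45.

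D cyclins and CDK inhibitors had 2 of 9 higher and 2 lower, with a median of -0.11. Cdkn1a, which encodes p21, was at 46.9 and 2.39 CPM, or 19.5 CPM without BMCP 18, and Cdkn2c at 46.1 and 7.65 CPM, or 1.81 CPM in negative cells without BMCP 41. Ccnd3 was at 87.4 and 183 CPM, or 40.6 CPM in positive cells without BMCP 11. Survival genes had none of 10 higher and 2 lower, beside 15.8% and 30.3% of all genes, with a median of 0.05. Bcl2l1 was at 8.20 and 40.02 CPM, or 2.17 CPM in positive cells without BMCP 63.

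Lists of markers of other cell types were read in the same way. Early granulocyte genes had 3 of 6 at least 2-fold higher, 1 lower and a median of 0.65, which was -0.61 without BMCP 12. Mpo, myeloperoxidase, was at 28.8 and 11.3 CPM against 31492 CPM in GMP, and Ctsg, cathepsin G, at 186 and 11.3 CPM against 6619 CPM in GMP. BMCP 12 held 86.1% of the positive reads of Mpo and 80.8% of those of Ctsg. Late neutrophil genes had 3 of 4 higher and 1 lower, with a median of 1.63 that was -0.38 without BMCP 3, which held 99.1% of the positive reads of Mmp8 (34.99 and 8.35 CPM). Monocyte and dendritic cell genes had 1 of 3 higher, H2-Ab1 at 25.97 and 5.64 CPM, or 10.1 CPM without BMCP 36, and a median of 0.70 (-0.27 without BMCP 84). Lymphoid genes had 2 of 7 higher and 1 lower, with a median of 0.03, the value of Nkg7, which both this list and the early granulocyte list hold and which stood at 1207 and 1180.0 CPM. Cd79b was at 156 and 34.03 CPM, or 83.5 CPM without BMCP 45. In negative cells Mpo was at 6.39 CPM without BMCP 56, Ctsg at 3.63 CPM without BMCP 15, Mmp8 at 2.62 CPM without BMCP 79 and H2-Ab1 at 2.76 CPM without BMCP 10. Megakaryocyte genes had 1 of 6 in each direction and a median of 0.42 (-0.19 without BMCP 3), and 2 eosinophil genes a median of 0.32 (-1.76 without BMCP 35) with none called. The part of these genes in the differences above was not tested.

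The 17 positive cells differed among themselves. Across them, the Spearman correlation with Fcer1a was 0.60 for Cma1, 0.61 for Syk, 0.55 for Ndst2 and 0.54 for Hs6st2, and -0.70 for Igfbp4, -0.69 for Ifitm1 and -0.56 for Fos, and it was -0.01 for Ms4a2. It was 0.27 for Mcpt8, 0.20 for Rab27b, 0.18 for Alox5 and -0.29 for Mitf. These are descriptions over 17 cells of 1 sample, of a gene whose level chose the cells, and most of the genes were picked for a difference between the sides. They pool both number blocks, and none was computed within a block. In numbers 1 to 47 and 48 to 94 the positive medians were 591 and 180 CPM for Fcer1a. They were 4224 and 15.7 CPM for Cma1 and 441 and 1710 CPM for Igfbp4. The part of the blocks in the correlations was not tested. As a description, with the number of cells set after the values were seen, the 7 cells with the highest Fcer1a, from 488 CPM in BMCP 18 to 2392 CPM in BMCP 3, all held Cma1 at 3946 CPM or more. Of these 7, all in numbers 1 to 47, 5 also held Mcpt8 at 1806 to 10212 CPM, BMCP 35 held 103 CPM and BMCP 46 had no read of it. BMCP 82, with the lowest Fcer1a of the positive cells, also held 6897 CPM of Cma1 and 12871 CPM of Mcpt8.

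**Figure D4:**
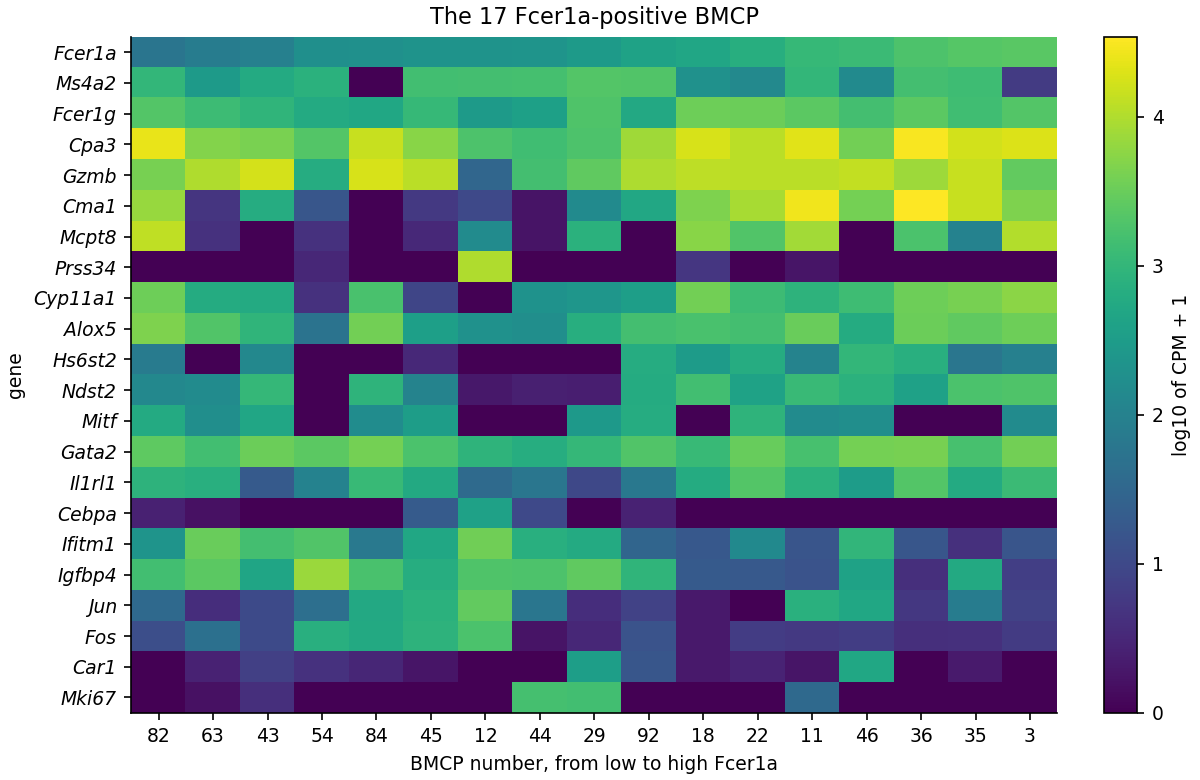
Log10 of CPM plus 1 (colour) for 22 genes (y axis) in the 17 positive BMCP, ordered by Fcer1a from low to high (x axis, cell number). The 7 cells at the right hold 3946 CPM or more of Cma1, BMCP 12 stands out by Prss34 at 10061 CPM, and BMCP 44 and 29 by Mki67 at 1582 and 1434 CPM.

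BMCP 12 stood apart in its protease and lineage genes. It held Prss34 at 10061 CPM, Ctsg at 2352 CPM, Cebpa at 398 CPM, Hdc at 1643 CPM and Ccl9 at 4013 CPM, with Fcer1a at 209 CPM. Of the mast cell list, BMCP 12 held Cma1 at 8.84 CPM, Gzmb at 30.4 CPM and no read of Mitf. Cpa3, of the list shared by both cell types, stood at 1834 CPM. Of the basophil list beside Prss34, BMCP 12 held Mcpt8 at 152 CPM and Ifitm1 at 3609 CPM. It held no read of the list members Cyp11a1, Cd200r3, Il4 and Bhlhe40. With BMCP 12, 29 and 44 left out together, a choice made after the data were seen, the log2 ratio was 3.88 for Cma1 and 1.61 for Cpa3. These cells held the lowest Cpa3 of the positive side, 1373 to 1856 CPM, and 0.749 to 147 CPM of Cma1. Both ratios were therefore bound to rise, and the rise is no support for either difference.

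Outside the lists, 442 genes that were higher and 624 that were lower met the rule of size, spread and direction given with the processing, and the names below come from the 15 largest ratios of each direction. In positive cells Mctp1, a calcium-binding membrane protein, was at 284 and 52.4 CPM, with medians of 193 and 1.44 CPM, and 14 of 17 positive cells above the median of negative cells. Beside Hs6st2 and Mctp1, they included Atxn7l3, Uchl5, Kif23, Tiam2, G3bp2, Sla, Kdm6b, Mef2d, Rab3gap1 and Lrmp, with log2 ratios of 2.33 down to 1.64. Sla, an adaptor that dampens antigen receptor signals, was at 270.1 and 70.6 CPM. Kdm6b, a histone H3 demethylase, was at 182 and 50.4 CPM, or 31.5 CPM in negative cells without BMCP 51. The ratio of Rab3gap1 was 0.88 without BMCP 44.

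Towards negative cells the rule named Cflar, Tgif1, Tapbp, Aprt, Galnt1, Gpatch8, Tardbp, Apeh, Tut7, Ak3, Lst1, Vdac1, Cpt1a, Kcnc1 and Rere, with log2 ratios from -3.39 to -2.06. Cflar, an inhibitor of caspase-8, was at 12.6 and 142 CPM, with medians of 0.794 and 15.03 CPM. Tgif1, a repressor of TGF-beta responses, was at 34.7 and 286 CPM, with medians of 0.779 and 113 CPM and 3 of 17 positive cells above the latter. Tapbp, which loads peptides on MHC class I, was at 42.2 and 332 CPM, or 22.3 CPM in positive cells without BMCP 54. Cpt1a, which admits fatty acids to mitochondria, was at 46.1 and 204 CPM.

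**Figure D5:**
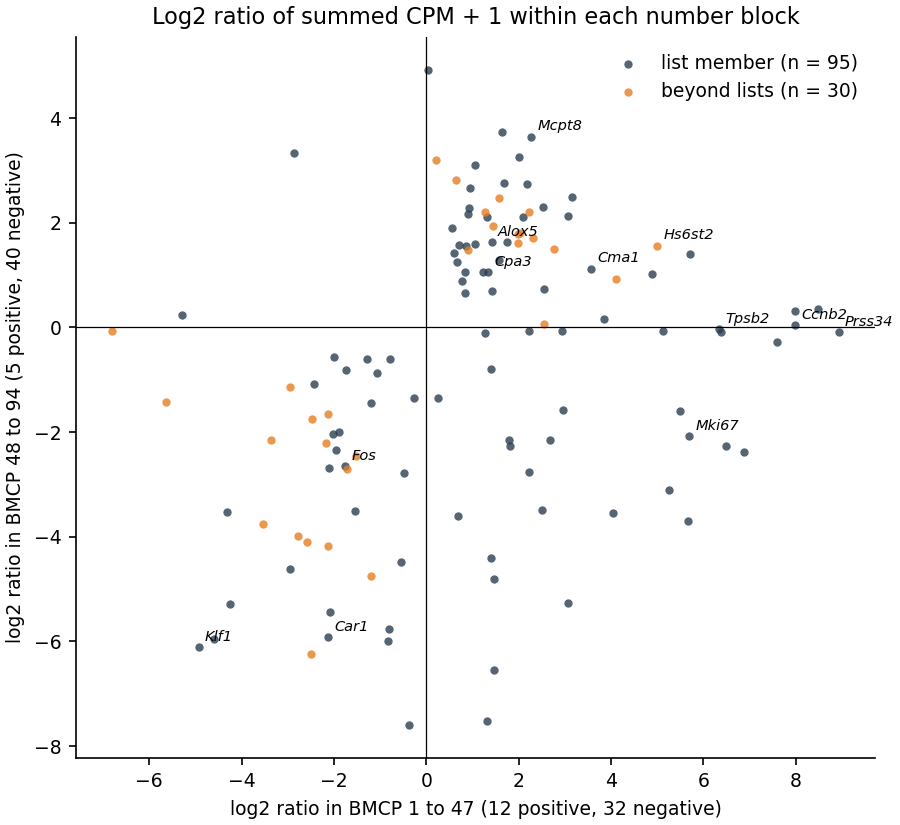
Log2 ratio of summed CPM plus 1, positive over negative BMCP, within numbers 1 to 47 (x axis, 12 positive and 32 negative cells) and within numbers 48 to 94 (y axis, 5 positive and 40 negative cells), for 95 list members (dark) and 30 other genes (orange) named by rule. The rule for the orange genes required 1 direction in both blocks; Mki67 and the other genes at the lower right have opposite signs.

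Within the blocks, 38 of the 67 higher and 26 of the 28 lower list members kept their direction in both. No such count was made over all genes compared. In numbers 48 to 94, 6395 genes were at least 2-fold lower in positive cells, against 4156 over both blocks. Higher and lower members are therefore not on an equal footing in these counts. Both conditions, at least 2-fold without the cell with most reads and the same direction in both blocks, held for 27 of the 67 higher members, among them Alox5, Cma1, Cpa3, Cyp11a1, Hpgds, Il1rl1, Lat2, Mcpt8, Mitf, Ndst2 and Rab27b, and for 23 of the 28 lower members, among them Car1, Fos, Grb2, Ifitm1, Ier2, Jun, Junb, Klf1, Pirb and Vav1. Numbers 48 to 94 held 5 positive cells, so values there rest on few cells. Those of Cma1 and Mcpt8 rest on BMCP 82, at 6897 and 12871 CPM. No other positive cell there held more than 531 CPM of Cma1 or 3.49 CPM of Mcpt8. Neither ratio was computed within this block without BMCP 82.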

How the data were processed

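Single-cell RNA-seq counts were available for 94 BMCP and 47 GMP, 1 library per cell, with 23 PCR cycles, single reads of 50 bases and spike-in RNA, per the labels' protocols. The deposited values are raw read counts per gene, without molecular identifiers. Alignment and counting tools named in the submitters' processing notes are GSNAP and HTSeq 0.5.3p3, with the build mm10; of the annotation they give no release. Gene names came from GENCODE vM21. Rows that name no gene stayed out of all totals; of all reads, 30.4% were unaligned, 17.6% had no gene and 3.77% were ambiguous.

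Reads of each side were summed and scaled to 1000000 nuclear-encoded counts, and 1 CPM was added before log2. Genes with at least 1 CPM in either side were compared. Intervals are at 95%, exact Poisson for summed counts and exact Clopper-Pearson for shares of cells, and with floors of 3 counts they cover counting error only. Fixed-depth values used 200000 reads per cell. With 1 sample no test was made; cells are not replicates. The cells had been sorted singly and no doublet caller was run. No 2 cells held identical counts. The steps were tested on simulated data.

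Named genes are list members at least 2-fold different with 20 CPM or more in the higher side, defining genes of the lists, and, beyond the lists, the 15 largest ratios in each direction. The last had 20 CPM or more and at least 2 reads at fixed depth in at least 50% of cells of the higher side. No cell gave 50% of their counts, and their direction was shared by the mean over cells and both number blocks. Some genes that meet these rules are not reported here. The members and lists were chosen with earlier results of these data known. Alternatives were other pseudocounts, scalings, gene and cell filters, limits on Fcer1a, each number block, and leaving out cells; leaving out BMCP 29 and 44, or 12, 29 and 44, was added after seeing the data. Values were computed in pandas 2.3.3 and numpy 2.4.6 under Python 3.11.15, intervals in scipy 1.17.1 and figures in matplotlib 3.10.9.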

Additional observations from a re-analysis of the deposited data

How the results depend on the processing

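No paired analysis was possible because the cells carry only their own numbers and no test was made. Of 59 called single genes followed through 34 settings, 50 never changed direction. Some of these settings could not change the direction of a single gene. These were the other pseudocounts, the filters on genes, and a positive limit of 10 CPM, which chose the same cells. The median of all genes was 0.16 with spike-in scaling. The number of genes at least 2-fold lower in Fcer1a-positive BMCP was 2665 with a pseudocount of 5 CPM, 1844 (with 1322 higher) among genes at 20 CPM or more, and 6395 in numbers 48 to 94. With no filter on low genes the median log2 ratio was 0 for mast cell and -0.010 for late neutrophil genes. In numbers 48 to 94 the medians were -0.088 for G2 and M phase, -1.99 for immediate early and -0.073 for late neutrophil genes, and the log2 ratios -3.61 for Gab2, -0.030 for Tpsb2, -0.083 for Prss34, -2.15 for Il9r, -0.80 for Ccr1, -6.54 for Ccl9, -2.07 for Mki67 and -1.57 for Mpo. Tspo2 was at 1.31 in numbers 1 to 47. Without BMCP 29 and 44 the G2 and M phase median was 0.043 and Mki67 -0.33, and without BMCP 12 as well they were 0.080 and -0.24, with Prss34 at -0.039 and Mpo at -1.19. Without the highest cell of each side Gab2 was at -0.56, Tpsb2 -0.042, Prss34 -0.10 and Mpo -1.05. Over leaving out each positive cell, the log2 ratio ran from -1.01 to 1.29 for Gab2, -0.062 to 6.08 for Tpsb2, -0.14 to 8.80 for Prss34 and -1.22 to 1.40 for Mpo, the late neutrophil median from -0.38 to 1.76, and the counts from 2133 to 2199 higher and 4211 to 4380 lower. Except where a sentence names the cells behind a value, the cause was not tested. Reads without molecular identifiers and 17 positive cells limit the precision.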

Other observations

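Of 76 ribosomal protein genes compared, picked out after their values were seen, 68 had a log2 ratio below 0, as had 58.3% of all genes compared, with a median of -0.42, and -0.47 and -0.63 within the blocks. At least 2-fold lower were 14 of the 76, a smaller share than the 30.3% of all genes. With spike-in scaling the median was -0.04.

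Among genes of no list, also picked after their values were seen, Tyrobp, an adaptor of activating receptors, stood at 1244 and 568 CPM in positive and negative cells, with medians of 1366 and 310.03 CPM. Selenop, a selenium carrier, stood at 809 and 355 CPM, with medians of 544 and 64.7 CPM, and both were higher in positive cells within each block. Mc5r, a melanocortin receptor, stood at 0.688 and 108 CPM, with a median of 0 CPM in positive and 3.69 CPM in negative cells.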
